A study of Mus musculus with 40 samples.

Results

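The Trav6 family segments of subgroups 6 and 7 are V segments of the T cell receptor alpha locus (Tcra) of the mouse. They were chosen by name, as the rows of the Tcra repertoire tables called Trav6, Trav6d or Trav6n with subgroup 6 or 7 and without DV in the name. Earlier results of these data were known when this was done. The rule found 5 of the 111 V segments listed: Trav6-6, its copies Trav6d-6 and Trav6n-6, and the subgroup 7 copies Trav6d-7 and Trav6n-7. The original subgroup 7 segment is named Trav6-7-dv9, because it is also counted as a V segment of the delta locus (Trd), and it is given beside the members as a comparison only.

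A Tcra chain is made in developing thymocytes by joining 1 V segment (Trav) to 1 J segment (Traj). The V array and the J array lie one after the other on the chromosome, and a cell can join again, each new join using a V segment farther upstream and a J segment farther downstream than the last. First joins therefore tend to use the 5′ end of the J array, and later joins its 3′ end. In C57BL/6 mice a large piece of the V array is repeated, and letters d and n in a segment's name mark the copies in the repeats.

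The study addressed the CTCF binding site (EACBE) at the Tcra enhancer Ea. CTCF is a protein that binds DNA and anchors chromatin loops. Receptor transcripts were copied by 5′ RACE, which needs no V-specific primer, from thymus RNA of C57BL/6 mice aged 4 to 8 weeks, either with the site (EACBE+/+) or lacking it (EACBE-/-), with 2 libraries per genotype. Hi-C, which maps chromatin contacts, gave 1 boundary list for EACBE+/+Rag1-/- and 1 for EACBE-/-Rag1-/- thymus. Those mice lack Rag1, a part of the recombinase, and were injected with anti-CD3ε to drive thymocyte development, so their V array is unrearranged.

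The Tcra tables held 10694 and 172388 counts in EACBE+/+ and 19085 and 163953 in EACBE-/-, in replicates 1 and 2, and all 5 members were listed in every table. The labels do not say that the 2 libraries of a genotype are separate mice, so p-values measure the spread between these libraries only. It is also not stated whether a count stands for a read or for a distinct receptor, and the 95% Wilson intervals given here cover counting error alone. The tables hold receptor segments and no cell type marker, and they do not read the deleted site, so neither the tissue nor the genotype labels could be checked in them.

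The members lie on chromosome 14 (mm10; positions of the V segments from RefSeq on GRCm38.p6) in an order that runs toward the J array. Trav6d-6 comes first, at chr14:52821922-52822359, 1335.4 kb from the start of Traj58, the first J segment listed. Trav6d-7 follows at chr14:53007632-53008098, 1149.6 kb away, and Trav6n-6 at chr14:53132700-53133137, 1024.6 kb away. Trav6n-7 lies at chr14:53318818-53319284, 838.5 kb away, and Trav6-6 at chr14:53516929-53517366, 640.4 kb away. The left-out Trav6-7-dv9 is nearest to the J array, at chr14:53709943-53710419 and 447.3 kb. Counted along the 106 Trav segments listed, the members take places 17, 36, 45, 62 and 79. The spacing repeats between the subgroups: the d and n copies are 310.8 kb apart in subgroup 6 and 311.2 kb in subgroup 7, and the n copy and the original 384.2 kb and 391.1 kb.

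Together the members held 6.45% and 7.70% of the EACBE+/+ counts and 7.41% and 8.89% of the EACBE-/- counts, in replicates 1 and 2. The groups overlapped, at 7.08% ± 0.884 against 8.15% ± 1.05 (SD, n = 2 each). The difference of 1.07 points gave p = 0.667 in a two-sided exact permutation test, which with 2 libraries against 2 cannot go below 0.333. The difference was 0.332 points without EACBE-/- replicate 2, 0.449 without EACBE+/+ replicate 1, 1.70 without EACBE+/+ replicate 2 and 1.82 without EACBE-/- replicate 1. In transcripts of a whole thymus, fewer cells with a segment and less receptor RNA per cell cannot be told apart.

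Most of this use came from 2 members. Trav6-6 held 2.78% and 3.14% of EACBE+/+ counts (297 and 5407) and 3.49% and 4.46% of EACBE-/- counts (666 and 7319). Both EACBE-/- libraries were above both EACBE+/+ libraries, and Trav6-6 ranked between 2 and 5 of 106 Trav segments in every library. Trav6d-7 held 2.53% and 2.10% in EACBE+/+ (270 and 3627 counts) and 2.36% and 1.82% in EACBE-/- (451 and 2990), with the groups overlapping and ranks from 8 to 15.

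The other 3 members were used less and varied more between libraries of 1 genotype. Trav6n-6 held 0.683% and 1.36% in EACBE+/+ (73 and 2337 counts) and 0.933% and 1.49% in EACBE-/- (178 and 2442). Trav6d-6 held 0.383% and 0.986% in EACBE+/+ (41 and 1700 counts) and 0.555% and 0.944% in EACBE-/- (106 and 1547). For both, replicate 2 lay above replicate 1 in each genotype, and the distance between replicates was larger than that between genotypes. Trav6n-7 was the rarest member, at 0.0842% and 0.120% in EACBE+/+ and 0.0681% and 0.171% in EACBE-/-, from 9, 206, 13 and 281 counts. In the order of levels, Trav6-6 lay above Trav6d-7, Trav6d-7 above both Trav6n-6 and Trav6d-6, and Trav6n-7 below all 4 in each library. Trav6n-6 lay above Trav6d-6 in each library too, but their values over the 4 libraries overlapped.

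**Figure D1:**
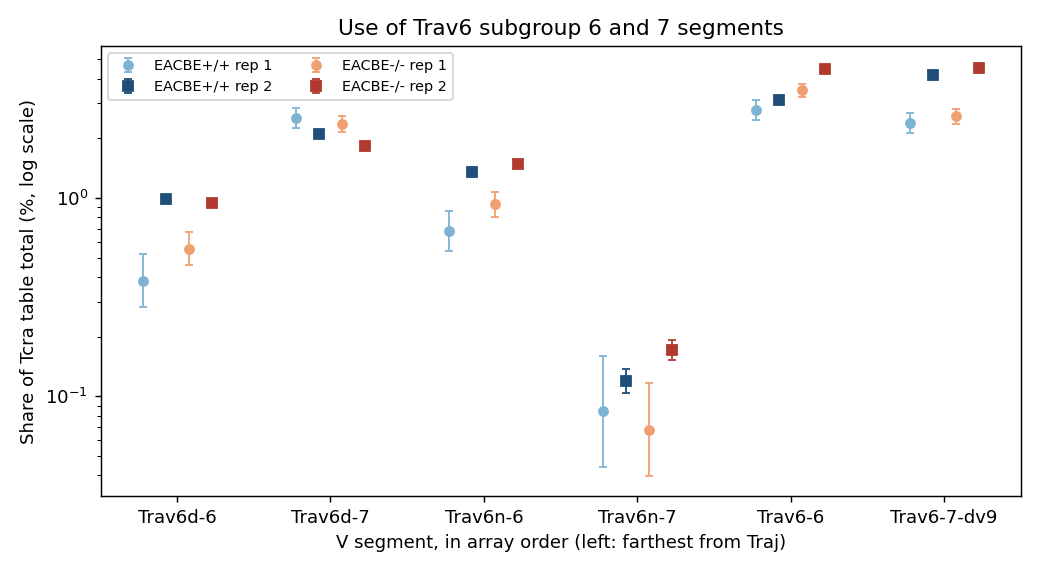
Share of each library's Tcra counts (percent, log axis) held by the 5 members and by Trav6-7-dv9, with 1 point per library and its 95% Wilson interval. Trav6-6 is the only member with both EACBE-/- libraries (3.49% and 4.46%) above both EACBE+/+ libraries (2.78% and 3.14%).

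None of the 5 members passed edgeR's quasi-likelihood test of use between the genotypes, fitted on all Trav segments (0 of 5, against 5.66% of 106 segments called, all lower). At an unadjusted p below 0.05 the count was 0 of 5 as well (17.0% of all segments), and in DESeq2 it was 0 of 5 (7.55%). Trav6-6 had the largest difference among the members, 1.35-fold higher in EACBE-/-, with a log2 change of 0.43 (SE 0.302, adjusted p = 0.504 in edgeR). Its groups did not overlap, as held for 25.5% of the 106 segments in the same direction. Log2 changes were -0.14 for Trav6d-7 (SE 0.305), 0.24 for Trav6n-6 (SE 0.430), 0.11 for Trav6d-6 (SE 0.520) and 0.24 for Trav6n-7 (SE 1.04). The adjusted p of these 4 ran from 0.813 to 0.903 in edgeR. With 2 libraries per genotype and errors of this size, a p that missed the threshold does not show that use was alike. The median of the members was 0.24 and that of all 106 segments -0.13.

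The make-up of each subgroup by copy differed between replicates as much as between genotypes. Trav6-6 made up 72.3% and 57.2% of the subgroup 6 counts in EACBE+/+ and 70.1% and 64.7% in EACBE-/-. Trav6n-6 made up 17.8% and 24.8% against 18.7% and 21.6%, and Trav6d-6 9.98% and 18.0% against 11.2% and 13.7%. Between the subgroup 7 members, Trav6d-7 held 96.8% and 94.6% in EACBE+/+ and 97.2% and 91.4% in EACBE-/-. Each of these comparisons overlapped and gave p = 1.0 in the two-sided exact permutation test. The copies are close relatives in sequence, and the sources used here do not say how reads that fit more than 1 copy were counted, so the split between copies is uncertain. Summed over its copies, subgroup 6 differed by 0.35 on the log2 scale (edgeR, adjusted p = 0.403), and subgroup 7, with Trav6-7-dv9 in the sum, by 0.01 (adjusted p = 0.963).

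The members were joined to J segments of the 3′ end of the array in a smaller share of counts in EACBE-/-, and to those of the 5′ end in a larger share. The 43 listed Traj segments were grouped as a 5′ list (Traj58 to Traj42, 13 segments), a middle list (Traj40 to Traj22, 16 segments) and a 3′ list (Traj21 to Traj2, 14 segments). The 3′ list took 26.1% and 32.7% of the members' EACBE+/+ counts and 15.1% and 18.8% of their EACBE-/- counts. Both EACBE-/- libraries lay below both EACBE+/+ libraries, at 17.0% ± 2.58 against 29.4% ± 4.69 (SD, n = 2 each), 1.73-fold lower. The two-sided exact permutation test gave p = 0.333, the smallest it can give here. All other Trav segments together were at 23.8% and 30.0% in EACBE+/+ and 14.55% and 17.0% in EACBE-/-, 1.71-fold lower, so the Trav6 values lay beside those of the rest of the array.

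The 5′ list took 24.1% and 24.9% of the members' EACBE+/+ counts and 31.1% and 32.3% of their EACBE-/- counts, again without overlap (24.5% ± 0.564 against 31.7% ± 0.856, SD, n = 2 each, exact permutation p = 0.333). The middle list took 49.9% and 42.4% against 53.7% and 48.9%, with overlapping groups. Shares within a segment have a fixed total, so a lower 3′ share by itself raises the other lists.

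**Figure D2:**
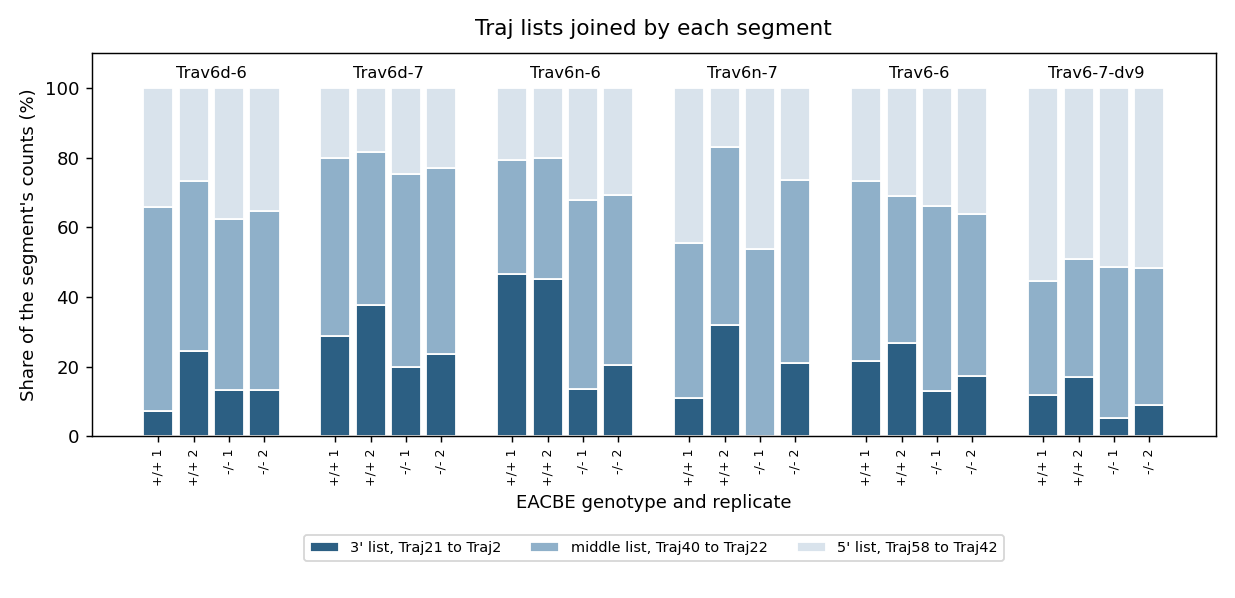
Share of each member's counts (percent, stacked bars from 0) joined to the 5′, middle and 3′ Traj lists, with 1 bar per library. The 3′ part of Trav6n-6 is near 46% in the EACBE+/+ libraries and at 13.5% and 20.5% in the EACBE-/- libraries, while Trav6-6 starts from 21.5% and 26.7%.

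The copies differed in their EACBE+/+ 3′ share. Trav6n-6 joined the 3′ list in 46.6% and 45.2% of its EACBE+/+ counts (Wilson intervals 35.6 to 57.9% and 43.2 to 47.2%) and in 13.5% and 20.5% of its EACBE-/- counts (9.23 to 19.3% and 18.9 to 22.1%). The groups were far apart, at 45.9% ± 0.982 and 17.0% ± 4.94 (SD, n = 2 each), which is 2.70-fold lower. Trav6d-7 joined the 3′ list in 28.9% and 37.6% of EACBE+/+ and 20.0% and 23.8% of EACBE-/- counts, and Trav6-6 in 21.5% and 26.7% of EACBE+/+ and 12.9% and 17.3% of EACBE-/- counts. Neither overlapped between genotypes.

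Trav6d-6 did not show a separation, with 7.32% and 24.4% in EACBE+/+ against 13.2% in both EACBE-/- libraries. Its lowest value rests on 3 counts of 41. Trav6n-7 had 11.1% and 32.0% in EACBE+/+ and 0% and 21.0% in EACBE-/-, where the 0 comes from 13 counts, which allows a share of up to 23.1%. The 3′ share was thus lower in EACBE-/- without overlap for 3 of the 5 members (Trav6n-6, Trav6d-7 and Trav6-6), against 67.6% of 105 Trav segments with counts in every library.

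A test of the 3′ share within each V segment, added after the data were seen, compared the odds of a 3′ join (3′ counts over all other counts) between genotypes in edgeR. Trav6n-6 changed, with a log2 odds change of -1.99 (SE 0.484, adjusted p = 0.00121 in edgeR). That call covered 1 of the 5 members, against 35.8% of 106 Trav segments, each of them lower in EACBE-/-. It was lost when any 1 library was left out: the adjusted p in edgeR was then 0.0509 without EACBE+/+ replicate 1, 0.310 without EACBE+/+ replicate 2, 0.163 without EACBE-/- replicate 1 and 0.0651 without EACBE-/- replicate 2. The log2 odds change stayed between -2.43 and -1.71 in those 4 fits. Over all Trav segments, 38 passed with every library, 0 without either EACBE+/+ library, 10 without EACBE-/- replicate 1 and 9 without EACBE-/- replicate 2. Calls of neighbours given further on thus rest on both EACBE+/+ libraries as well. Which of them held without 1 EACBE-/- library is not given here. The other members did not pass, with log2 odds changes of -0.85 for Trav6-6 (SE 0.474, adjusted p = 0.125 in edgeR), -0.84 for Trav6d-7 (SE 0.470, adjusted p = 0.125), -0.89 for Trav6n-7 (SE 0.515, adjusted p = 0.131) and -0.70 for Trav6d-6 (SE 0.497, adjusted p = 0.234). The members' median of -0.85 lay near that of all Trav segments, -0.94. Of the 10 other Trav6 segments 3 fell in these odds and 7 did not pass.

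Each Trav-by-list sum was also tested against the library total. None of the 15 sums of the members passed in edgeR (0 of 15, against 4.53% of 309 sums, all lower), 1 of 15 had an unadjusted p below 0.05 (20.4% of all sums), and DESeq2 called 0 (6.47%). The 3′ sum of Trav6n-6 had a log2 change of -1.10 (SE 0.553, adjusted p = 0.319 in edgeR). It ran from -0.52 without EACBE+/+ replicate 2 and -0.64 without EACBE-/- replicate 1 to -1.91 without EACBE-/- replicate 2. The 3′ sum of Trav6d-7, the sum with the unadjusted p below 0.05, had one of -0.75 (adjusted p = 0.237). The 5′ sum of Trav6-6 had one of 0.71 (adjusted p = 0.283 in edgeR).

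Within the subgroup 6 trio, the n copy had the highest 3′ share in each library, by more points in EACBE+/+ than in EACBE-/-. The 3′ share of Trav6n-6 exceeded that of Trav6d-6 by 39.3 and 20.8 points in EACBE+/+ and by 0.276 and 7.29 points in EACBE-/-. Against Trav6-6 the excess was 25.0 and 18.5 points in EACBE+/+ and 0.570 and 3.19 points in EACBE-/-. For both pairs every EACBE+/+ excess was larger than every EACBE-/- excess, with p = 0.333 in the two-sided exact permutation test. In EACBE-/- replicate 2 the Wilson interval of Trav6n-6 (18.9 to 22.1%) still lay above those of Trav6d-6 (11.6 to 15.0%) and Trav6-6 (16.4 to 18.2%). The 0.276 points rest on 24 and 14 3′ counts. Differences in points become smaller when both shares become smaller, and ratios between copies were not compared. The 5′ share of Trav6n-6 was the lowest of the trio in each library, at 20.5% and 20.2% in EACBE+/+ and at 32.0% and 30.7% in EACBE-/-. Trav6-6 was at 26.6% and 31.0% and then at 33.9% and 36.2%. Trav6d-6 was at 34.15% and 26.65% and then at 37.7% and 35.3%, so its order against Trav6-6 varied between libraries. Of the 5 members 4 (all but Trav6n-7) had a higher 5′ share in EACBE-/- without overlap, against 45.7% of Trav segments.

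The median J segment is the one at which a member's counts along the array reach their midpoint. It lay farther 5′ in EACBE-/- without overlap for Trav6n-6, Trav6-6 and Trav6d-7. For Trav6n-6 it was Traj22 and Traj23 in EACBE+/+ and Traj33 and Traj32 in EACBE-/-. For Trav6-6 it was Traj31 and Traj32 in EACBE+/+ and Traj34 in both EACBE-/- libraries, and for Trav6d-7 Traj30 and Traj26 against Traj31 in both. For Trav6d-6 the values were Traj37 and Traj31 in EACBE+/+ and Traj35 and Traj34 in EACBE-/-, so its groups overlapped. Those of Trav6n-7 overlapped too, with Traj37 and Traj27 in EACBE+/+ and Traj40 and Traj32 in EACBE-/-.

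Distance to the J array and the 3′ share went together across V segments. Over the 71 Trav segments with at least 500 counts in both replicate 2 libraries, the 3′ share was higher for segments farther from Traj58, with r = 0.757 and rho = 0.740 in EACBE+/+ replicate 2 and r = 0.632 and rho = 0.654 in EACBE-/- replicate 2. These points share a library and often a copy, so the values are a description. The median 3′ share was 34.8% in EACBE+/+ and 18.5% in EACBE-/-. By rank from the highest share, Trav6n-6 stood at place 13, Trav6d-7 at 29, Trav6-6 at 44 and Trav6d-6 at 48 in EACBE+/+. In EACBE-/- Trav6d-7 stood at 21, Trav6n-6 at 32, Trav6-6 at 43 and Trav6d-6 at 54. Trav6d-6, the member farthest from the J array, thus had the lowest 3′ share of these 4, while Trav6-7-dv9, the nearest, came lower still at places 57 and 63.

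**Figure D3:**
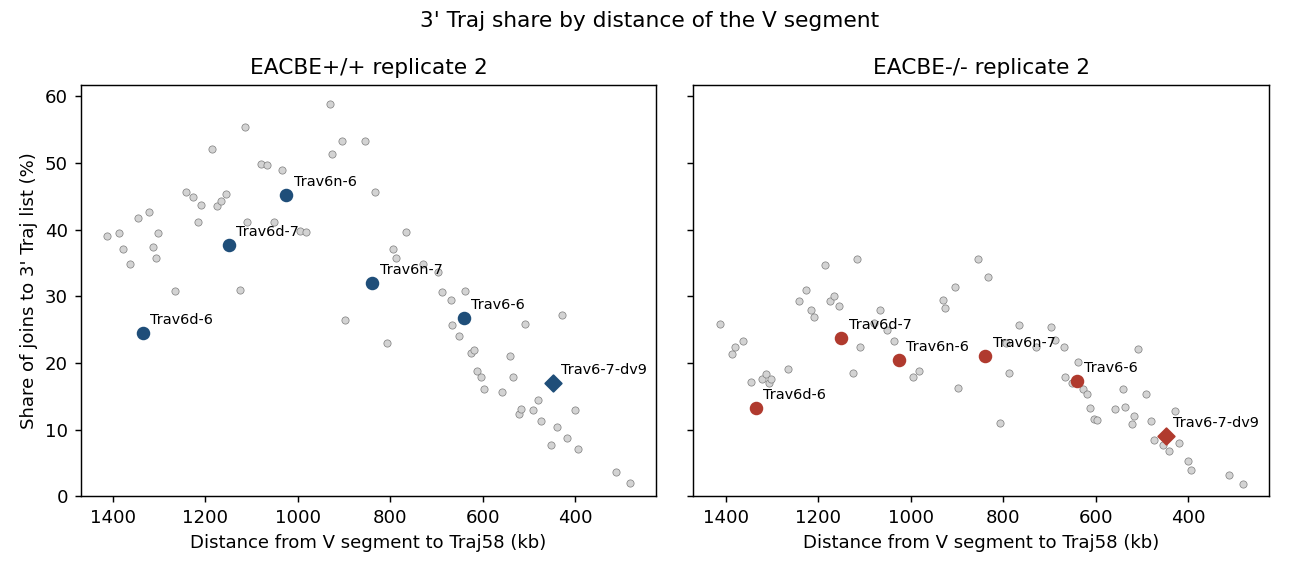
3′ Traj share (percent) against distance to the start of Traj58 (kb) in the 2 replicate 2 libraries, 1 panel per genotype, with grey points for the 71 Trav segments of at least 500 counts in both and coloured points for the members (Trav6n-7, with fewer counts, is drawn too) and Trav6-7-dv9. In EACBE+/+ Trav6d-6 lies at 24.4%, well below Trav10d (41.7%) and Trav7d-5 (42.6%), which flank it.

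The 2 listed Trav segments on each side of a member gave a local comparison. Around Trav6n-6, Trav6n-5, Trav10n, Trav7n-5 and Trav12n-1 each fell in the odds of a 3′ join (log2 odds changes from -2.35 to -1.10, adjusted p from 1.284e-05 to 0.0338 in edgeR), as Trav6n-6 itself did. In EACBE+/+ replicate 2 these neighbours joined the 3′ list in 41.1% to 52.0% of counts, and Trav6n-6 in 45.2%. Trav7n-5, which had the 52.0%, held only 0.029% of that library's counts. In replicate 1 its 3′ share was 18.2% in EACBE+/+ and 11.8% in EACBE-/-. Around Trav6-6, the log2 odds changes of Trav6-5, Trav10, Trav11 and Trav7-5 were negative too, from -0.76 to -0.60. None of them passed (adjusted p from 0.151 to 0.285 in edgeR). Whether they differ from those around Trav6n-6 was not tested. The EACBE+/+ replicate 2 shares of these neighbours ran from 21.4% to 30.8%, and that of Trav6-6 was 26.7%. Both segments thus lay within the range of their neighbours in that library.

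Trav6d-6, at 24.4% in the same library, lay below all 4 of its neighbours. Of these, 3 ran from 34.9% to 42.6%, and Trav11d, with 50.0%, held only 0.00464% of that library's counts. Its neighbours Trav10d and Trav7d-5 joined the 3′ list in 32.0% and 33.6% of counts in EACBE+/+ replicate 1, where Trav6d-6 had 7.32%, and in 41.7% and 42.6% in EACBE+/+ replicate 2. In EACBE-/- replicate 1 they had 10.5% and 16.1% around the 13.2% of Trav6d-6, and in replicate 2 17.1% and 17.6% against 13.2%. Both neighbours fell in the odds of a 3′ join (log2 odds changes -1.89 and -1.63, adjusted p = 0.0007025 and 0.00611 in edgeR), while Trav6d-5 and Trav11d, the other neighbours, did not pass (adjusted p = 0.0979 and 0.507). Whether the log2 odds change of Trav6d-6 differs from theirs was not tested. In all, 9 of the 20 neighbours of the members fell and 11 did not pass. Over all 106 Trav segments, 35.8% fell.

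Likeness of the whole J profile was measured as the total variation distance, the share of counts that would have to move between Traj segments to make 2 profiles equal (0 for equal, 1 for no overlap), averaged over the 2 replicate 2 libraries. The profiles nearest to Trav6-6 were those of Trav7-5 (0.0881), Trav6-5 (0.0978) and Trav12-2 (0.104), against a median of 0.178 over the candidates. The profile nearest to Trav6d-6 was that of Trav6-6 (0.120), followed by Trav7-5 (0.134) and Trav6-5 (0.138), none of them a d copy. Trav7-5 and Trav6-5 flank the original copy Trav6-6, not Trav6d-6. For Trav6n-6 the nearest were Trav7d-5 (0.105), Trav6d-7 (0.114) and Trav13d-2 (0.120), all d copies, and Trav6d-6 came only at place 40 (0.189). For Trav6d-7 they were Trav7-4 (0.0947), Trav16d-dv11 (0.105) and Trav14n-3 (0.110). Trav6n-7, with 206 and 281 counts, had only distant profiles, the nearest that of Trav6d-7 (0.190).

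Between the genotypes, the replicate 2 profiles of Trav6n-6 differed by 0.258, those of Trav6d-6 by 0.174, those of Trav6d-7 by 0.153 and those of Trav6-6 by 0.127. The 2 EACBE+/+ libraries lay farther apart than that, at 0.294, 0.410, 0.167 and 0.190 for the same members in turn. The 2 EACBE-/- libraries lay 0.165 apart for Trav6n-6, closer than the genotypes, and 0.218, 0.159 and 0.154 apart for the others, farther than the genotypes. Replicate 1 held few counts for Trav6d-6 and Trav6n-6, and what counting error adds to a distance was not tested.

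Single J segments showed where along the array the members' joins differed. Of the 14 Traj segments in the 3′ list, 13 held a lower share of the members' counts in EACBE-/- in both replicate numbers, 11 of them without overlap. In the 5′ list 9 of 13 were higher in both replicate numbers, 5 without overlap, and in the middle list 8 of 16 were higher and 2 lower. Over all 43 Traj segments 12 were higher and 12 lower without overlap. The same count over all V segments was 18 higher (41.9%) and 12 lower (27.9%). The counts per list were not made over all V segments, so they cannot show whether this pattern is particular to the members.

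The last segments of the array had low EACBE-/- shares. Traj4 took 1.59% and 2.30% of the members' EACBE+/+ counts and 0.283% and 0.508% of their EACBE-/- counts. Traj2, the last segment listed, took 0.290% and 1.65% in EACBE+/+ and 0.141% and 0.178% in EACBE-/-, with a wide gap between the EACBE+/+ libraries. Both were lower in EACBE-/- without overlap. Traj43, near the 3′ edge of the 5′ list, took 2.17% and 2.38% in EACBE+/+ and 3.75% and 5.34% in EACBE-/-, also without overlap.

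**Figure D4:**
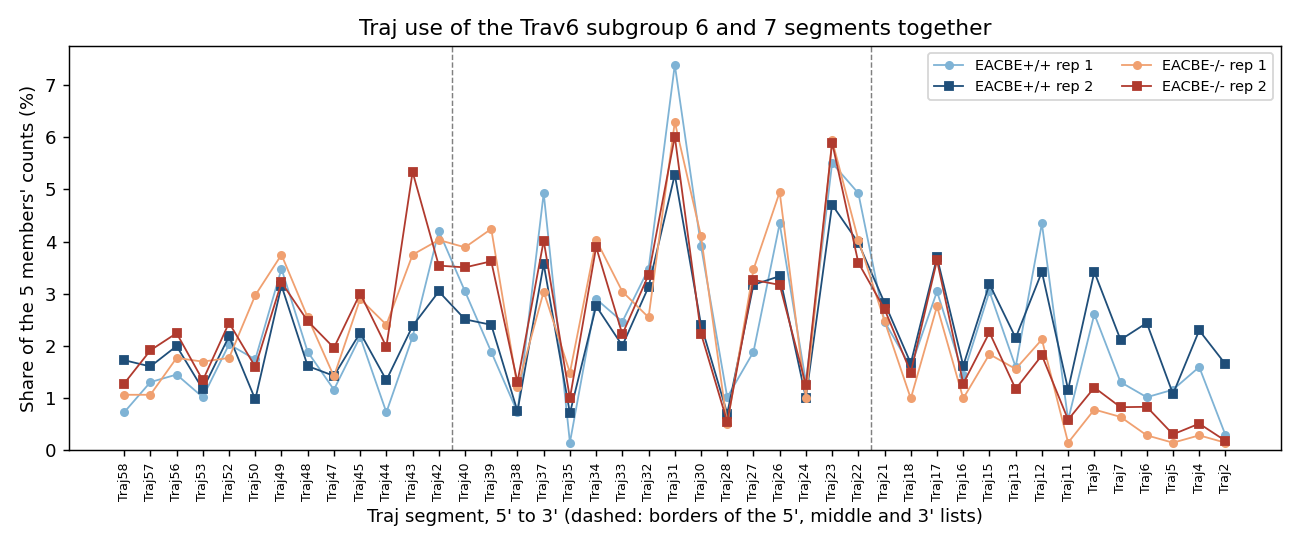
Share of the members' summed counts (percent) joined to each of the 43 Traj segments, in order from Traj58 to Traj2, with 1 line per library. The EACBE-/- lines run below the EACBE+/+ lines at Traj4 (0.283% and 0.508% against 1.59% and 2.30%) and above them at Traj43 (3.75% and 5.34% against 2.17% and 2.38%).

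By member, Traj4 was lower in the deep replicate 2 libraries for each of the 5. In EACBE+/+ and EACBE-/- it took 2.79% and 0.502% of the counts of Trav6d-7, 4.02% and 0.696% for Trav6n-6, 1.59% and 0.505% for Trav6-6, 1.29% and 0.259% for Trav6d-6, and 0.971% and 0.356% for Trav6n-7, the last on 2 counts and 1. Trav6n-6 was the heaviest user of Traj4 in both EACBE+/+ libraries. For Traj2 it was so in EACBE+/+ replicate 2 alone, at 2.82%, against 0.205% in EACBE-/- replicate 2. Trav6n-6 had 0 Traj2 counts in replicate 1 of either genotype. Traj43 was higher in the EACBE-/- replicate 2 library for each member, at 4.42% to 5.95% against 1.46% to 3.00%. In replicate 1, Traj4 had 7 and 2 counts for Trav6d-7 in EACBE+/+ and EACBE-/- and at most 2 for any other member.

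Of the 215 pairs of a member with a Traj segment, 150 had enough counts to be tested: 43 of Trav6d-7, 42 of Trav6-6, 37 of Trav6n-6, 28 of Trav6d-6 and 0 of Trav6n-7. Trav6d-7 with Traj4 was the only pair that passed with all 4 libraries, table totals and the filter, and it fell (1 of 150, against 3.35% of 2417 pairs over all V segments). It had 7 and 101 counts in EACBE+/+ and 2 and 15 in EACBE-/-, with a log2 change of -2.67 (SE 0.667, adjusted p = 0.0194 in edgeR). The call was lost in DESeq2 (log2 change -2.75, adjusted p = 0.217), without EACBE+/+ replicate 2 (adjusted p = 0.311 in edgeR), without EACBE-/- replicate 1 (0.111) and without EACBE-/- replicate 2 (0.457). Other settings called other pairs. Without EACBE+/+ replicate 1, 6 of the members' pairs fell: Trav6d-7 with Traj4, Trav6-6 with Traj2, and Trav6n-6 with Traj2, Traj4, Traj6 and Traj9. With TMM factors 3 fell (Trav6d-7 and Trav6n-6 with Traj4, and Trav6n-6 with Traj9), as did 3 without a filter on low counts. Without EACBE-/- replicate 1 the pair that passed was Trav6-6 with Traj43, which rose (log2 change 1.61, adjusted p = 0.0426 in edgeR). DESeq2 gave no adjusted p for 11 of the members' 150 pairs and called 0, against 0.786% of all 2417 pairs. At an unadjusted p below 0.05 there were 15 member pairs, 8 higher and 7 lower, against 17.4% of all pairs.

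The next pairs by p did not pass. Trav6n-6 with Traj9 had 5 and 125 counts in EACBE+/+ and 2 and 28 in EACBE-/- (log2 change -2.05, adjusted p = 0.0638 in edgeR). Trav6n-6 with Traj4 had 2 and 94 against 1 and 17 (adjusted p = 0.0772). Trav6-6 with Traj43 had 9 and 148 against 27 and 427 (log2 change 1.28, adjusted p = 0.0786 in edgeR).

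By the mean share over the 4 libraries, each weighted alike, the J segments used most by the members together lie in the middle list. Traj31 came first for the members as a whole, and did so in each library, with 7.39% and 5.29% in EACBE+/+ and 6.29% and 6.02% in EACBE-/-. Traj23 and Traj22 followed by that mean. Traj31 was also first in every library for Trav6d-6, and in all but EACBE-/- replicate 2 for Trav6-6, where Traj43 (5.83%) was above it (5.74%). For Trav6d-7 it had the highest mean, but was first in EACBE+/+ replicate 1 alone, and Traj23 was first in both replicate 2 libraries (5.18% and 6.36%). For Trav6n-6 the highest mean was that of Traj22, which was first in EACBE+/+ replicate 1 alone, on 7 of 73 counts. Traj9 (5.35%) was first for Trav6n-6 in EACBE+/+ replicate 2, and Traj23 in both EACBE-/- libraries (8.43% and 6.43%). The Traj31 shares of Trav6n-6 were higher in EACBE-/- without overlap, at 6.18% and 5.69% against 2.74% and 4.84%. For Trav6n-7 the segments with the highest means were Traj32, Traj23 and Traj56, from at most 16 counts each in any library. Traj56, of the 5′ list, had 1 of 9 counts in EACBE+/+ replicate 1 and 2 of 13 in EACBE-/- replicate 1. In replicate 2 it had 2 of 206 and 5 of 281, so its place rests on the few replicate 1 counts.

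The members were also found in Trd transcripts, at a far lower level, and were listed in replicate 2 alone. The replicate 1 Trd tables were small, with 1744 counts in EACBE+/+ and 5615 in EACBE-/-. Those tables listed only 18 and 22 V segments, far fewer than in replicate 2. Absence from replicate 1 was thus shared by most V segments and is not particular to the members. Joined to Trd segments, Trav6-6 had 47 of 28093 counts in EACBE+/+ replicate 2 (0.167%, Wilson interval 0.126 to 0.222%) and 167 of 47158 in EACBE-/- replicate 2 (0.354%, 0.304 to 0.412%). Trav6d-7 had 54 and 112 counts (0.192% and 0.237%), Trav6d-6 17 and 19, Trav6n-6 14 and 9, and Trav6n-7 6 and 6. Nearly all used Trdj1: 45 of 47 and 166 of 167 for Trav6-6, and all counts of the other 4. The same held for the comparison segment Trav6-7-dv9, with 298 of 303 and 552 of 557. Together the members held 0.491% and 0.664% of the Trd counts, so their share was 15.7 and 13.4 times higher in Tcra in the same replicate. With 1 library per genotype that lists them, the difference between genotypes has no replicate check. Trav6-7-dv9, named for its use in both loci, held 1.08% and 1.18% of these 2 tables and was listed in replicate 1 as well, at 0.229% and 0.303%.

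In the Hi-C boundary lists, no member lay in a boundary in either genotype. The lists give intervals of 20000 bases with the authors' boundary score, 400 on chromosome 14 in EACBE+/+Rag1-/- and 533 in EACBE-/-Rag1-/-. All 5 members lay in a single stretch between the same pair of calls. On the upstream side that was chr14:52620001-52640000 in both lists, with a score of 0.633 in EACBE+/+Rag1-/- and 0.337 in EACBE-/-Rag1-/-. On the downstream side it was chr14:53680001-53700000 (score 0.588) in EACBE+/+Rag1-/- and the next interval, chr14:53700001-53720000 (score 0.517), in EACBE-/-Rag1-/-. Trav6d-6 was 181.9 kb from the upstream boundary in both, and Trav6-6 was 162.6 kb and 182.6 kb from the downstream one. Trav6-7-dv9 lay outside that stretch in EACBE+/+Rag1-/-, 9.9 kb past the boundary, and inside the boundary interval in EACBE-/-Rag1-/-. With 1 library per genotype these differences have no replicate check.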

How the data were processed

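Of the 40 samples of the series, 8 repertoire libraries (4 Tcra, 4 Trd) and 2 Hi-C boundary lists were used here, grouped by the genotype in their labels. The authors deposited each repertoire as a table of whole-number counts of V against J segments, made by 5′ RACE per the labels' protocols. The tool that assigned the segments was not stated, nor was what 1 count stands for. If counts are reads, amplification adds to the spread between libraries. The deposited boundary lists give a boundary score per interval on mm10, per the file headers, and their caller is not named there. The submitters' processing notes name HiC-Pro 2.11.1, Juicer 1.13.02, Bowtie2 2.3.4.3 and 2.20.8, cutadapt 0.4.4 and bedtools 2.26.0. No column of per-sample values in these tables was left unused.

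All 111 Tcra V and 43 J symbols matched RefSeq (GRCm38.p6). Counts were fitted with edgeR 4.0.16 in R 4.3.3 (glmQLFit, glmQLFTest) on table totals without TMM factors, with filterByExpr at a minimum count of 10 and a minimum total of 15. The 5 V segments listed in replicate 2 alone stayed in the totals and out of the fits. P-values were adjusted by Benjamini-Hochberg over all features of a fit, with a threshold of 0.05. The SE is the size of the log2 change divided by the square root of the test's F. The odds fit used 2 sums per library, the 3′ list and the rest, with the library as a term and their ratio compared between genotypes. Single shares were compared by the two-sided exact permutation test. Wilson intervals cover 95%. A share of 0 was given a limit of 3 counts.

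All members were named, with the 2 listed Trav segments on each side, their 3 leading Traj segments, Traj2, Traj4 and Traj43, pairs past the threshold and the 3 most alike profiles. Pairs with the next lowest p were chosen after their values were seen. The members and lists were chosen with earlier results of these data known. Alternatives were DESeq2 1.42.0, TMM factors, fits without a filter, without each library or with a replicate block, other list bounds, copies summed, each pair counted once, Trav6-7-dv9 added and other totals. Fits were tested on simulated counts. In edgeR, simulated 4-fold changes were recovered for 12.5% of changed V segments, 16.1% of V-J pairs and 33.3% of list sums. Changes of 1.5-fold and 2-fold were recovered for 0% in each of these fits, so a missing call says little about changes of that size. The odds fit recovered 90% of 4-fold changes, under a spread set in advance and not taken from the data. Other steps used Python 3.11.15 with matplotlib 3.10.9, scipy 1.17.1, pandas 2.3.3 and numpy 2.4.6.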

Additional observations from a re-analysis of the deposited data

How the results depend on the processing

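Of the alternatives run for fitted results of the members, 177 were counted as keeping direction and side of the threshold. For a count of calls this meant a size within 1.5 times. In the 177 is the fit without EACBE-/- replicate 1, where the call fell on another pair, in the other direction. A further 19 reversed the direction, 13 gained a call, 8 lost one and 7 moved a value. The copy make-up and the shares of the members together are not in this tally. With 1 library left out, differences in copy make-up took either sign. They ran from -4.85 to 10.2 points for Trav6-6, -5.58 to 2.44 for Trav6d-6, -4.58 to 2.4 for Trav6n-6 and -4.29 to 1.5 for Trav6d-7. With the replicate number as a block, 49 Trav segments passed in edgeR instead of 6, 716 V-J pairs instead of 81 (40 of the members instead of 1), 156 Trav-by-list sums instead of 14 and 85 odds instead of 38. In that fit Trav6-6 use passed (log2 change 0.43, adjusted p = 0.002995) and so did the odds of all 5 members. Deviations of same-numbered libraries went together (r = 0.832 over 106 segments), but no label ties the numbers, so the block is an alternative only.

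DESeq2 called 19 V-J pairs, the fit without a filter 129, summed copies 12 V segments, and a split of the array at Traj32 7 list sums. In the odds, that split gave calls for Trav6-6 (log2 odds change -0.51, adjusted p = 0.0196 in edgeR) and Trav6d-7 (-0.60, adjusted p = 0.0230). With each V-J pair counted once, the difference between genotypes in the members' 3′ share was -0.745 points, in their 5′ share 0.305 points and in their share of all Tcra counts 0.194 points. Replicate 2 held nearly all pairs of the members, so that measure mostly counts the segments of a list. With the 5′ list ended at Traj48 its difference was 2.54 points.

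Leaving out 1 library gave 2 (without EACBE-/- replicate 1) to 4 V segments, 0 (without EACBE+/+ replicate 2) to 150 V-J pairs (without EACBE+/+ replicate 1), 6 (without EACBE-/- replicate 1) to 23 list sums (without EACBE+/+ replicate 1) and 0 (without either EACBE+/+ library) to 10 odds. Log2 changes in use then ran from -0.39 to 0.97 for Trav6d-6, -0.34 to 0.032 for Trav6d-7, -0.15 to 0.83 for Trav6n-6 and -0.60 to 0.72 for Trav6n-7. For 3′ sums they ran from -0.68 to 0.093 (Trav6-6), -1.24 to 1.84 (Trav6d-6) and -0.80 to 0.36 (Trav6n-7). For middle sums they ran from -0.41 to 0.77 (Trav6d-6), -0.19 to 0.29 (Trav6d-7) and -0.48 to 0.82 (Trav6n-7), and for the 5′ sum of Trav6d-7 from -0.068 to 0.40. The log2 odds changes ran from -1.09 to 0.94 for Trav6d-6 and from -7.27 to 0.87 for Trav6n-7. The -7.27, without EACBE-/- replicate 2, rests on 0 of 13 counts in EACBE-/- and depends on the prior count, so it is no bound. EACBE+/+ replicate 1 held only 9 to 73 counts for Trav6n-7, Trav6d-6 and Trav6n-6, whose part in these ranges was not tested, nor was any other cause.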
